A study of Mus musculus with 4 samples.

Results

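The genes described here are 10 receptors and signalling proteins through which immune cells recognise microbial products and foreign nucleic acid, out of 32285 genes counted in each library. They were chosen by name and not by a cutoff on any value, but with earlier results of these data known. They are the Toll-like receptors Tlr1, Tlr2, Tlr3, Tlr4, Tlr7 and Tlr9 and the adaptor Myd88. The others are the RIG-I-like receptors Ddx58 (which encodes RIG-I), Ifih1 (MDA5) and Dhx58 (LGP2). Their UMIs (unique molecular identifiers, each marking an original mRNA molecule) were read in single cells of draining lymph nodes from wild-type C57BL/6 mice. The question was which cells of the node carry the message of each receptor, and whether that level differs between mice given extracellular vesicles (EVs) of induced pluripotent stem cells (iPSCs) and control mice. EV mice received 100 µg of iPSC EVs in all under the skin, and their nodes were taken on day 5. Control mice received PBS. For these points the sample labels instead give a duration of 24 h for every library and no treatment for the controls, and the conflict could not be resolved here. Each group had 2 libraries, called biological replicates in the methods, which do not say how many mice each one holds.

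Of 34323 barcodes, 32725 cells passed the filters, and 5 gates were set by UMIs of marker genes. B cells (Cd79a at least 1, no Cd3e) numbered 14686, CD4 T cells 5197 and CD8 T cells 5901. Macrophages (C1qa and C1qb together at least 2, no Cd3e) numbered 280, from 42 to 91 per library, and plasmacytoid dendritic cells (pDCs; Siglech at least 2, no Cd3e) 124, from 20 to 43 per library. The libraries held 50749656 to 70418672 UMIs and shared 12 to 26 barcodes pair by pair. The median B cell held 4142 (Control 1), 4905 (Control 2), 5811 (EV 1) and 5615 (EV 2) UMIs. Markers that the gates did not use were checked in each gate. The 3 B cell markers Cd79b, Ms4a1 and Pax5 summed to 3072 to 3494 CPM (UMIs per 1000000 UMIs of the gate) in the B gate and to 5.66 to 11.2 CPM in CD4 T cells, and the 4 T cell markers to 3182 to 3755 CPM in the T cell gates. The 6 pDC markers summed to 12027 to 12854 CPM in pDCs but also to 1608 to 1772 CPM in B cells, and the CD8 T cell marker Cd8b1 stood at 324 to 492 CPM in pDCs. B cell markers summed to 123 to 299 CPM in pDCs and macrophage markers to 149 to 329 CPM. Of the 124 pDCs, 13 also lay in the B gate and 12 in the macrophage gate. The macrophage gate held much RNA of other cells. Its 6 macrophage markers summed to 1605 and 2384 CPM in Control but to 1330 and 1340 CPM in EV, below the B cell markers of the same EV libraries (1470 and 1585 CPM, against 797 and 814 CPM in Control). Markers of pDCs summed to 671 to 3057 CPM there, 51 of its cells also lay in the B gate and 12 in the pDC gate, and its median depth was only 1100 to 1456 UMIs per cell. All levels are CPM of the gate. Such a value cannot separate fewer expressing cells from fewer molecules per cell.

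Toll-like receptors are membrane proteins that couple a ligand-binding ectodomain to an intracellular TIR domain. Tlr1, Tlr2 and Tlr4 act at the cell surface, where Tlr2 paired with Tlr1 recognises bacterial lipoproteins and Tlr4 recognises lipopolysaccharide. Tlr3, Tlr7 and Tlr9 sit in endosomes and recognise RNA duplexes, RNA rich in uridine or guanosine, and DNA with CpG motifs. Most of these receptors signal through Myd88, whereas Tlr3 uses the adaptor Ticam1. Ddx58 and Ifih1 are cytosolic RNA helicases that signal through Mavs to type I interferon, and Dhx58 is a helicase of the same family without the signalling domains that modulates them. Plasmacytoid dendritic cells and B cells are the lymphoid cells best known for Tlr7 and Tlr9, and the 3 helicase genes are known interferon-inducible genes.

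The genes lie on 8 chromosomes of the mouse genome (GRCm38, GENCODE vM21). The Toll-like receptor genes are Tlr1 (chr5:64924679-64933563), Tlr2 (chr3:83836272-83841767), Tlr3 (chr8:45395665-45411080), Tlr4 (chr4:66827584-66930284), Tlr7 (chrX:167304929-167330558) and Tlr9 (chr9:106222598-106226883). The others are Myd88 (chr9:119335934-119341411), Ddx58 (chr4:40203773-40239828), Ifih1 (chr2:62595798-62646255) and Dhx58 (chr11:100694884-100704271). Tlr4 and Tlr9 are on the plus strand and the other 8 genes on the minus strand. Exons of Tlr3, Myd88 and Dhx58 share 381, 290 and 141 bases with exons of genes on the opposite strand (Gm45542, Acaa1a and Dhx58os), and whether the counting used strand is not given in the sources used here, so reads of these pairs may not be separated. Promoter windows of RefSeq (GRCm38.p6, 250 bases before to 50 after the start of transcription) were at hand for 7 of the 10 genes and not for Tlr4, Tlr7 and Dhx58. The core of the interferon-stimulated response element, searched on both strands as GAAANNGAAA, occurs in 3.44% of all 32851 windows, and in those of Ifih1, Ddx58 and Myd88. The 3 matches are shown because the interferon-high cells described further on are compared for these genes. The Myd88 stretch lies inside the GENCODE span given above, so the RefSeq start of Myd88 used here is not the outer end of that span. Each stretch is written 5′ to 3′ on the strand of its gene, with the match in capitals, and the Ddx58 match reads on the opposite strand.
Ifih1, chr2:62646206-62646233, match at bases 33 to 42 of the transcript: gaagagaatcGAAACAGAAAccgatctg
Ddx58, chr4:40239804-40239833, match at bases 3 to 12 of the transcript: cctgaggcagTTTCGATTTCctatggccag
Myd88, chr9:119340039-119340068, match from 40 bases before the start: gagcttctcgGAAAGCGAAAgaaggagggg

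The endosomal receptor Tlr7 was at its highest level in pDCs. The pDC level was 134 and 107 CPM in Control libraries 1 and 2 and 99.2 and 159 in EV libraries 1 and 2, from 163 UMIs in all. Over the 4 libraries this gave 121 CPM (exact 95% Poisson interval 103 to 141), against 26.9 (25.8 to 28.0) in B cells and 30.2 (18.9 to 45.8) in macrophages. Such pooled values, here and below, add Control and EV libraries, and their intervals cover counting error only. The B cell libraries ran from 18.8 to 30.6 CPM, wider than their interval. The T cell gates were lowest, CD4 at 4.54 CPM (3.89 to 5.26) and CD8 at 5.30 CPM (4.70 to 5.95). No library of the pDC gate overlapped any library of the other 4 gates. Outside these gates, 47 cells gated as monocytes held 74.5 CPM (54.6 to 99.4), with EV 2 at 103 CPM from 18 UMIs, within the range of the pDC libraries. In a fit over all 5 gates with library as a block (edgeR quasi-likelihood test, Benjamini-Hochberg over all genes), Tlr7 in B cells was lower than in pDCs by a log2 difference of -2.20 ± 0.23 (SE, adjusted p = 5.21e-08) and higher than in CD4 T cells by 2.32 ± 0.18 (adjusted p = 2.17e-10). CD4 and CD8 T cells did not differ past the threshold (-0.28 ± 0.23, adjusted p = 0.431). B cells and macrophages did not either (-0.20 ± 0.47, adjusted p = 0.791), and the macrophage value was the least settled of all, since it fell to 13.9 CPM, from 5 UMIs, when cells that also met another gate were left out.

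The share of cells with a Tlr7 UMI was also highest in pDCs. Among pDCs, 18 of 30 cells had such a UMI in Control 1, 16 of 43 in Control 2, 12 of 31 in EV 1 and 15 of 20 in EV 2. In B cells the share was 6.90% in Control 1, 8.47% in Control 2, 14.0% in EV 1 and 13.7% in EV 2, and in CD4 T cells 2.38% to 2.89% at a median of 6046 to 8339 UMIs per cell. In macrophages, at 1100 to 1456 UMIs per cell, it was 0 of 42, 1 of 80, 6 of 91 and 4 of 67 cells, a lower share than in B cells of the same library throughout. B cells were far more numerous. Pooled over the 4 libraries, 68.4% of all Tlr7 UMIs lay in the B gate, against 4.88% in the pDC gate. The groups differed in this. The B gate held 533 of 1049 Tlr7 UMIs in Control and 1750 of 2289 in EV, and the pDC gate held 87 and 76. B cells were 37.0% and 31.7% of cells in Control 1 and 2, and 59.6% and 50.4% in EV 1 and 2.

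Tlr9, the endosomal DNA receptor, and Tlr4, the lipopolysaccharide receptor, were the receptors that most clearly separated B cells from T cells. Tlr9 had 170 UMIs in B cells and none in 5197 CD4 and 5901 CD8 T cells. The B cell level was 4.09, 2.09, 1.80 and 1.13 CPM in Control 1, Control 2, EV 1 and EV 2. A count of 0 allows up to 0.0773 CPM over all CD4 T cells and 0.0564 CPM over all CD8 T cells (3 counts over the 4 libraries), so the B cell level of 2.00 CPM was at least 25.9-fold and at least 35.5-fold higher. In pDCs, Tlr9 had only 4 UMIs (2.96 CPM, interval 0.806 to 7.58), which did not differ from B cells past the threshold (adjusted p = 0.812). Tlr4 was at 18.2, 15.2, 14.0 and 14.0 CPM in B cells and at no more than 0.50 in any T cell library, a log2 difference of 5.55 ± 0.28 from CD4 T cells (adjusted p = 3.65e-19) and 6.53 ± 0.29 from CD8 T cells (adjusted p = 8.34e-21). In macrophages Tlr4 reached 30.2 CPM (18.9 to 45.8), with 0 UMIs in Control 1 and 22.6 to 37.9 CPM in the other libraries. The difference of macrophages from B cells missed the threshold (adjusted p = 0.0647).

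Tlr1 and Tlr2, partners at the cell surface, were distributed differently. Tlr1 was at 47.2, 46.8, 38.5 and 43.2 CPM in B cells and at 14.3, 17.0, 59.4 and 23.7 CPM in macrophages. These 2 gates did not differ past the threshold (adjusted p = 0.454), which does not show that they were alike. Macrophages lay above B cells in EV 1 only, and below them in Control 1, Control 2 and EV 2. Tlr1 lay between 16.2 and 20.7 CPM in every CD4 and CD8 T cell library. B cells exceeded CD4 T cells by 1.24 ± 0.11 (adjusted p = 4.52e-12), and pDCs, with 2 Tlr1 UMIs in 124 cells, lay 4.95 ± 0.55 below B cells (adjusted p = 4.15e-09). Both UMIs came from EV 1, and the call held without each library in turn, although the size of a difference from a gate at 0 cannot be estimated without EV 1. Tlr2 was instead highest in macrophages, at 20.6 CPM (11.5 to 34.0), and reached 8.14 CPM in pDCs, 2.51 in B cells, 1.75 in CD8 and 0.619 in CD4 T cells. The Tlr2 difference between B cells and macrophages was -2.999 ± 0.60 (adjusted p = 1.97e-04). Of the 15 macrophage UMIs, 10 came from EV 1 and 0 from Control 1, and without EV 1 the difference was -1.90 (adjusted p = 0.116). CD4 T cells were lower than CD8 T cells by -1.54 ± 0.37 (adjusted p = 0.00174). B and CD8 T cells did not differ past the threshold in Tlr2 (adjusted p = 0.181). Its highest levels lay outside the 5 gates, with 95.6 CPM (72.8 to 123) in 47 cells gated as monocytes and 94.1 CPM (53.8 to 153) in 33 gated as neutrophils. All but 5 of those monocytes and all but 2 of those neutrophils came from the EV libraries.

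Tlr3, the receptor for RNA duplexes, was scarce in all 5 gates. It had 136 UMIs in B cells, at 1.39, 2.24, 1.64 and 1.35 CPM, 13 in CD8 T cells, 4 in CD4 T cells, and 0 in macrophages, which allows up to 4.12 CPM there. B cells exceeded CD4 T cells by 3.67 ± 0.63 (adjusted p = 7.28e-06). The 22 cells gated as type 1 conventional dendritic cells (Xcr1 and Clec9a together at least 2), a cell type known for Tlr3, held 11 UMIs, a level of 71.3 CPM (35.6 to 128) in which EV 1 was at 0 with 1 cell. Those 22 cells held 5.70% of all Tlr3 UMIs.

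The adaptor Myd88 was present in every gate and library. It was at 29.8, 29.4, 29.2 and 41.6 CPM in pDCs, 14.3, 17.0, 40.8 and 9.46 CPM in macrophages and 10.4, 8.88, 11.7 and 9.15 CPM in B cells, while T cells lay between 12.5 and 20.7 CPM. Macrophage libraries overlapped those of both pDCs and B cells, and macrophages did not differ from pDCs past the threshold (adjusted p = 0.511). They exceeded B cells past the threshold with all libraries. With a library left out, the log2 difference of B cells minus macrophages ran from -1.43 to -0.38. B cells were lower than pDCs by -1.59 ± 0.26 (adjusted p = 8.69e-06) and lower than CD4 T cells by -0.81 ± 0.11 (adjusted p = 7.94e-08). Monocytes and neutrophils again held more, at 146 CPM (117 to 179) and 170 CPM (114 to 245).

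The 3 RNA helicases each had a different order. Ddx58 was at 76.4, 69.0, 69.3 and 74.2 CPM in B, CD4 T, CD8 T cells and macrophages, pooled over the libraries. None of these 6 pairs differed past the threshold (log2 differences of -0.10 to 0.13, adjusted p from 0.257 to 0.912). The macrophage libraries ran from 28.6 to 96.5 CPM, so this does not show that macrophages were like the lymphocytes. Among the 5 gates, pDCs stood apart, at 7.45, 12.6, 11.7 and 3.78 CPM, each below every library of the 3 lymphocyte gates. The difference between B cells and pDCs was 3.01 ± 0.26 (adjusted p = 4.09e-11), and the pDC level fell further, to 3.56 CPM from 4 UMIs, without cells that met another gate. Outside the 5 gates Ddx58 was also low in type 1 conventional dendritic cells (6.48 CPM, from 1 UMI) and migratory dendritic cells (21.0 CPM, 12.5 to 33.2), and high in monocytes (156 CPM) and neutrophils (159 CPM). Ifih1 was lowest in B cells among the lymphocyte gates. It was at 2.99, 2.61, 4.52 and 4.33 CPM in B cells, 14.7, 16.05, 21.8 and 25.4 in CD4 T cells and 8.63, 11.8, 12.98 and 20.04 in CD8 T cells, so that no B cell library reached any T cell library. B cells were lower than CD4 T cells by -2.55 ± 0.13 (adjusted p = 5.12e-17), and CD4 exceeded CD8 T cells by 0.49 ± 0.11 (adjusted p = 0.00154). Macrophages, at 38.5 CPM (25.6 to 55.6), did not differ from CD4 T cells past the threshold (adjusted p = 0.0747), and pDCs, at 12.6 CPM (7.33 to 20.1), did not differ from CD8 T cells (0.34 ± 0.37, adjusted p = 0.482). Monocytes held 162 CPM (132 to 197). Dhx58 was low in all lymphocytes, at 8.89 CPM in B cells, 5.75 in CD4 T cells and 5.24 in CD8 T cells, and stood at 23.4 CPM (13.6 to 37.4) in macrophages and 15.5 CPM (9.62 to 23.8) in pDCs. B cells did not differ from pDCs past the threshold (-0.81 ± 0.38, adjusted p = 0.0880). They were lower than macrophages by -1.38 ± 0.44 (adjusted p = 0.0151), but 11 of the 17 macrophage UMIs came from EV 1 and 0 from Control 1, and without EV 1 the difference was -0.51 (adjusted p = 0.626).

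**Figure D1:**
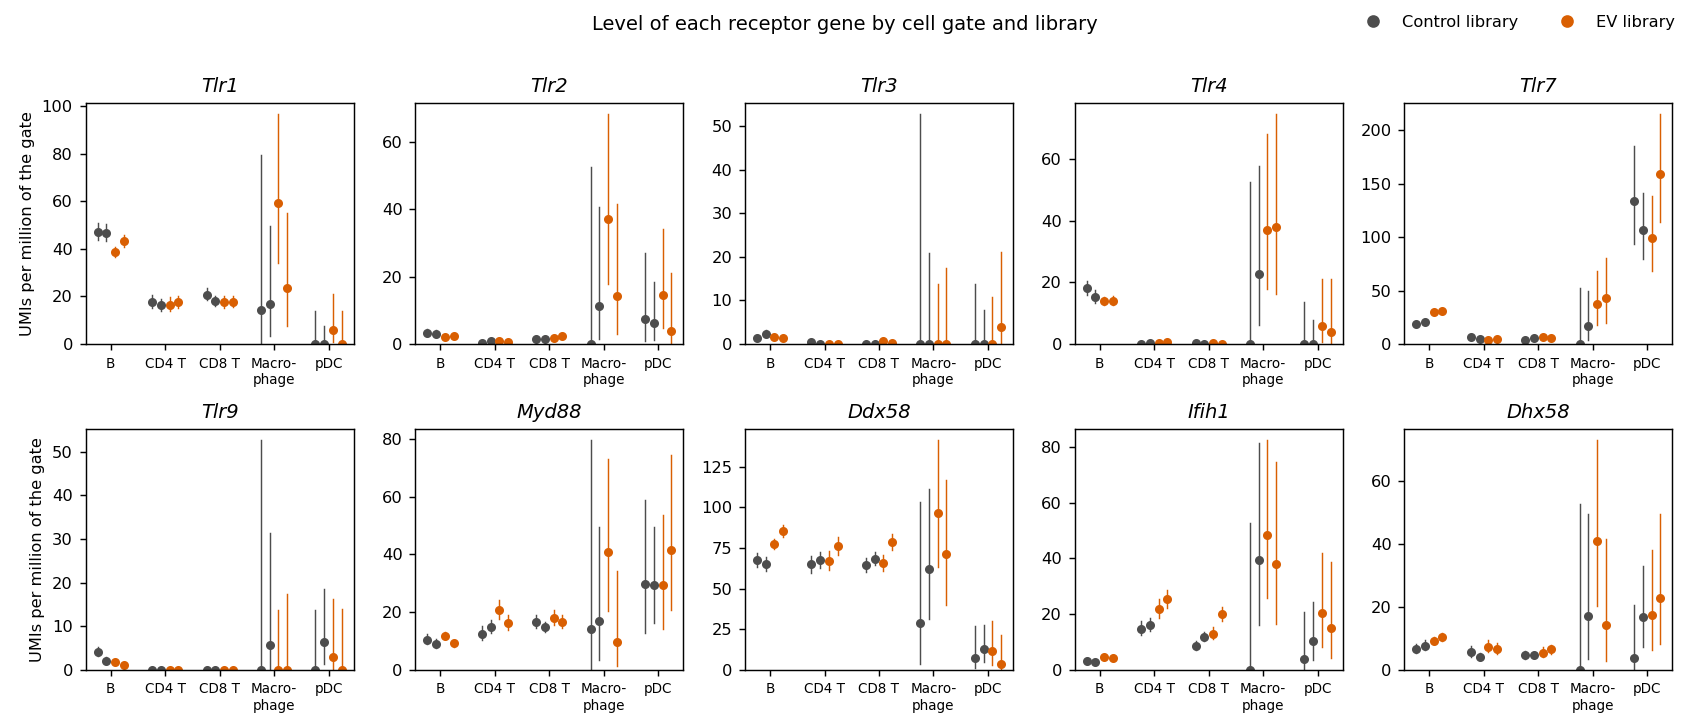
Level of each of the 10 genes in 5 gates (x axis) of each library, in CPM (y axis, from 0, a scale of its own in each panel); points are libraries, grey for Control and orange for EV, and lines are exact 95% Poisson intervals, which cover counting error only. Tlr7 stands highest in pDCs at 99.2 to 159, Ddx58 is low there at 3.78 to 12.6, Tlr9 is at 0 in all T cell libraries, and Tlr7 in B cells is 18.8 and 20.6 in Control against 30.03 and 30.6 in EV.

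Counted over the 10 genes, 9 differed between B and CD4 T cells, 8 between B and CD8 T cells, 4 between B cells and macrophages and 7 between B cells and pDCs. Of all 13425 genes tested, 63.6%, 66.5%, 33.9% and 41.3% differed in the same pairs. CD4 and CD8 T cells differed in 2 of the 10 (Ifih1 and Tlr2), against 25.6% of all genes. CD4 T cells differed in 5 genes from macrophages and in 7 from pDCs, where 39.7% and 45.8% of all genes were called, and CD8 T cells in 6 and 8, where 40.4% and 46.6% were. Macrophages and pDCs differed in 5, against 22% of all genes. The share among the 10 genes was the higher in every pair except CD4 against CD8 T cells, and a single gene moves it by 10 percentage points. The 10 genes were chosen with earlier results of these data known, so these shares are descriptive only. With cells thinned to 1000 UMIs the calls fell to 1 of 8 tested for B cells against macrophages and to 0 of 8 for CD4 against CD8 T cells and for macrophages against pDCs. With all libraries, all 4 genes called between B cells and macrophages were lower in B cells. Without EV 1 these gates differed in 2 genes, of which 1 was lower in B cells. The other was higher in B cells and was not among the 4. Without EV 1, CD4 T cells and macrophages differed in 3 genes and CD8 T cells and macrophages in 3, and without Control 2 each T cell gate differed from pDCs in 4. Without EV 2, CD8 T cells differed from pDCs in 5.

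The helpers of the endosomal receptors were measured from a list of 52 pathway genes in 8 roles. The 5 members at the highest level in pDCs were Irf8, a transcription factor of this lineage, at 2283 CPM, Hsp90b1, a chaperone needed for Toll-like receptors to fold, at 759 CPM, Ly86, a partner of the receptor-like protein Cd180, at 660 CPM, Unc93b1, which carries Tlr3, Tlr7 and Tlr9 to endosomes, at 628 CPM, and the adaptor Pik3ap1 at 431 CPM. In macrophages they were Irf8 at 449 CPM, Ly86 at 436, Hsp90b1 at 364, the cytokine Il1b at 316 and Unc93b1 at 284. The Il1b value came mostly from a library at 843 CPM, with the lowest at 4.73. Unc93b1 was at 301 to 361 CPM in B cells and at 3.55 to 6.86 CPM in the T cell libraries, where Tlr9 was at 0.

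The genes closest to each receptor in level, by Pearson correlation of log2(CPM + 1) over the 20 sums of 5 gates and 4 libraries among 13330 genes, were Arhgap21 (r = 0.96), Ulk2 (0.96) and Cop1 (0.96) for Tlr7, Shank1 (0.96), Gm35154 (0.94) and Chchd10 (0.92) for Tlr4, and Lax1 (0.94), Cotl1 (0.94) and Rph3al (0.94) for Ddx58. For Ifih1 they were Bag3 (0.91), Nbdy (0.89) and Psmb3 (0.87), and for Dhx58 Tnip2 (0.93), Stx12 (0.92) and Borcs6 (0.91). Tlr1 was closest to Rap1b (0.96), AB124611 (0.96) and Neurl3 (0.93), Tlr2 to Asna1 (0.91), Ddt (0.91) and Gins2 (0.90), and Tlr3 to Igkv10-96 (0.95), Gm19582 (0.92) and Actr3b (0.91). Tlr9 was closest to Fam129c (0.88), AU019990 (0.88) and 2700081O15Rik (0.86), and Myd88 to Chid1 (0.92), Ctif (0.86) and Ssr3 (0.84). The sums of a gate share its cells and those of a library its depth, so these values describe likeness only.

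In B cells, Tlr7 was the only one of the 10 genes that passed the test between EV and Control. Its level was 18.8 CPM in Control 1, 20.6 in Control 2, 30.03 in EV 1 and 30.6 in EV 2, from 533 UMIs in Control and 1750 in EV. Every EV library lay above every Control library, at 30.3 ± 0.431 CPM (SD, n = 2) against 19.7 ± 1.30 (SD, n = 2). The log2 fold change was 0.67 ± 0.10 (SE), with an adjusted p of 0.00790 by edgeR's quasi-likelihood test over all genes of the gate. In the B gate 2.97% of 13270 genes were called, and 1 of the 10 receptor genes was. At an unadjusted p under 0.05 there were 5 of the 10, beside 2547 of all 13270 genes. Without Control 1 the fold change was 0.60 and the adjusted p 0.0583. The share of B cells with a Tlr7 UMI was 7.68% ± 1.11 in Control and 13.8% ± 0.198 in EV (SD, n = 2 each), and 1.80% ± 0.224 and 2.85% ± 0.217 with every cell thinned to 1000 UMIs. An exact two-sided permutation test of 2 against 2 libraries cannot go below p = 0.333, the value both shares gave. All 4 libraries carried UMIs of the Y-linked genes Ddx3y, Eif2s3y, Kdm5d and Uty and 0 to 3 of Xist, so the X-linked Tlr7 was compared between libraries of male cells.

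The Tlr7 difference was present in each B cell subset examined. These subsets were chosen after seeing the data. They are parts of the same gate in the same libraries, most hold most of its cells, and they are not independent repeats. Cells with an Ighd and an Fcer2a UMI were 74.9% to 80.9% of the gate and the other B cells 19.1% to 25.1%. Cells without a T cell receptor or CD3 UMI were 89.9% to 91.2%, and cells not rich in interferon response genes 96.8% to 99.5%. In B cells with an Ighd and an Fcer2a UMI, genes of mature follicular B cells, Tlr7 was at 18.5 and 21.2 CPM in Control and 29.6 and 29.7 in EV (log2 fold change 0.63, adjusted p = 0.00576). In the other B cells it was at 20.1 and 17.9 against 31.3 and 35.1 CPM (0.81, adjusted p = 0.0340). UMIs of T cell genes fell in the EV B gate, with the 4 T cell markers summing to 49.1 and 65.3 CPM in Control and 23.3 and 26.3 in EV. Without cells holding a T cell receptor or CD3 UMI, the Tlr7 fold change was 0.63 (adjusted p = 0.0136). Without the cells rich in interferon response genes, described further on, Tlr7 stood at 18.4 and 20.1 against 27.7 and 27.2 CPM (0.56, adjusted p = 0.0242).

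**Figure D2:**
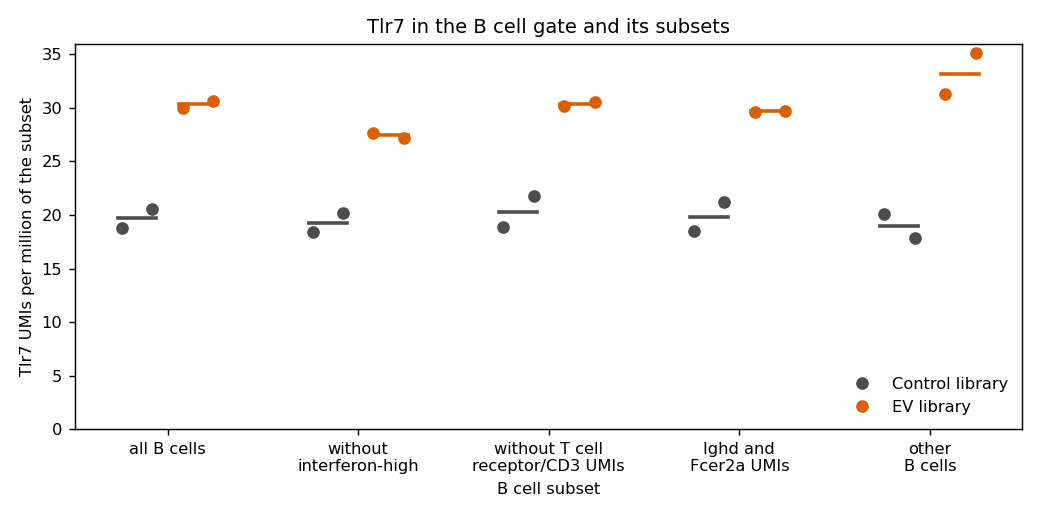
Tlr7 in all B cells and in 4 subsets (x axis), in CPM of the subset (y axis, from 0); points are libraries, grey for Control and orange for EV, and bars are the means of 2 libraries. In every subset both EV libraries (27.2 to 35.1) lie above both Control libraries (17.9 to 21.7). The 4 subsets are parts of the same B gate and are not independent of it.

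The other 9 genes did not pass the test in B cells. Among the helicase genes, Ddx58 was at 67.4 and 64.9 CPM in Control and 77.6 and 85.3 in EV (log2 fold change 0.35 ± 0.09, adjusted p = 0.0657), Dhx58 at 6.64 and 7.68 against 9.21 and 10.3 (0.49 ± 0.15, adjusted p = 0.121) and Ifih1 at 2.99 and 2.61 against 4.52 and 4.33 (0.71 ± 0.21, adjusted p = 0.111). Ifih1 had no difference left in thinned cells (-0.00042). Ddx58 passed without EV 1 (adjusted p = 8.29e-05) or without EV 2 (0.0416), and Dhx58 without EV 1 (0.0170). Tlr9 had a log2 fold change of -1.01 ± 0.36 (adjusted p = 0.170), which was -1.41 without EV 1 (adjusted p = 0.00632) and -0.45 without Control 1 (adjusted p = 0.850). Tlr1, Tlr2, Tlr3 and Tlr4 had fold changes of -0.16, -0.42, -0.22 and -0.20 and Myd88 0.16, all with an adjusted p over 0.36. Over the 10 genes the median was 0.00 and 5 were above 0, beside a median of -0.00 over all genes tested.

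In CD4 T cells the gene that passed was Ifih1. It was at 14.7 and 16.05 CPM in Control and 21.8 and 25.4 in EV, with no overlap, a log2 fold change of 0.63 ± 0.14 (SE, adjusted p = 0.0409). This was 1 of the 6 receptor genes that passed the filter on low counts, where 1.59% of 11933 genes were called. At an unadjusted p under 0.05 there were 3 of the 6, beside 1979 of all 11933 genes. The call was lost with DESeq2 (0.65, adjusted p = 0.216), in cells thinned to 1000 UMIs (0.97, adjusted p = 0.103) and without Control 1 (0.56, adjusted p = 0.269). The share of CD4 T cells with an Ifih1 UMI was 8.34% ± 1.26 in Control and 12.9% ± 0.224 in EV (SD, n = 2 each), and 1.30% ± 0.100 and 2.56% ± 0.0527 in thinned cells. Dhx58 (0.55 ± 0.24, adjusted p = 0.272), Myd88 (0.43 ± 0.17, adjusted p = 0.222), Ddx58 (0.13 ± 0.10), Tlr1 (0.03 ± 0.14) and Tlr7 (-0.37 ± 0.27, adjusted p = 0.517) did not pass. Without EV 2, Myd88 did (0.62, adjusted p = 0.00650).

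In CD8 T cells none of the 7 receptor genes tested passed, where 2.11% of 12284 genes were called. At an unadjusted p under 0.05 there was 1, Ifih1, beside 2231 of all 12284 genes, and DESeq2 called 0. Ifih1 was at 8.63 and 11.8 CPM in Control and 12.98 and 20.04 in EV (0.71 ± 0.22, adjusted p = 0.142). Here EV 2 stood apart from the other 3 libraries, and without EV 1 the adjusted p was 4.35e-08, without Control 2 8.79e-04 and without EV 2 0.298. Ddx58 (0.13 ± 0.09) passed without EV 1 only (0.24, adjusted p = 0.0261). Tlr7 was at 3.51 and 5.97 against 6.15 and 5.55 CPM, and its groups overlapped.

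**Figure D3:**
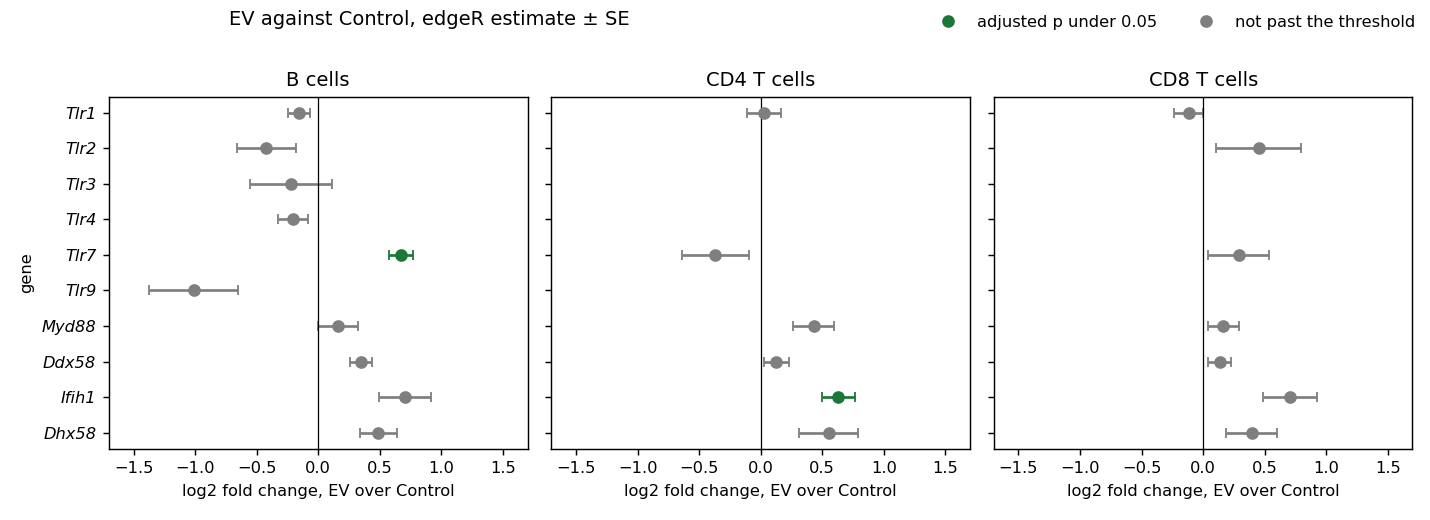
Log2 fold change of EV over Control (x axis) for each gene (y axis) in B, CD4 T and CD8 T cells; points are edgeR estimates, bars their standard errors, green where the adjusted p was under 0.05, and genes without a point did not pass the filter on low counts. Tlr7 in B cells (0.67) and Ifih1 in CD4 T cells (0.63) are the green points.

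The myeloid gates had too few UMIs to test most of the genes. In macrophages only Ddx58 passed the filter, at 28.6 and 62.2 CPM in Control and 96.5 and 71.0 in EV, from 2, 11, 26 and 15 UMIs (0.58 ± 0.52, adjusted p = 0.802), where 0.114% of 3497 genes were called. In pDCs only Tlr7 did (0.05 ± 0.30, adjusted p = 0.992), where 0.481% of 5195 genes were called. Neither gate had a receptor gene at an unadjusted p under 0.05, and DESeq2 called 0 in both. Tlr7 had no UMI in the macrophages of Control 1 and 3, 10 and 9 UMIs in those of the other libraries (17.0 CPM in Control 2, 37.1 and 42.6 in EV). B cell markers were also higher in the EV macrophages, and their part in this difference was not tested.

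The test of a difference in effect between gates called none of the 10 genes in the 4 pairs of gates compared. For B minus CD4 T cells, 1.55% of 13425 genes were called, and the value for Tlr7 was 1.02 ± 0.29 (unadjusted p = 0.00132, adjusted p = 0.0728), the nearest to the threshold. At an unadjusted p under 0.05 there were 2 of the 10 genes in that pair, beside 1323 of all 13425 genes, and 1 for macrophages minus B cells, beside 965. In the latter pair 0.0819% of all genes were called. CD8 minus CD4 T cells (0.0894% of all genes called) and pDCs minus B cells (0.104%) had 0. The Tlr7 effect in pDCs minus that in B cells was -0.58 ± 0.30 (adjusted p = 0.739). An effect confined to B cells was thus not shown.

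Of the 52 pathway genes, 4 rose and 1 fell in B cells among 42 tested. Of all genes tested, 2.97% were called in B, 1.59% in CD4 T and 2.11% in CD8 T cells, 0.114% in macrophages and 0.481% in pDCs. Irf7, the transcription factor that drives interferon genes downstream of Tlr7 and Mavs, rose from 9.78 and 11.5 CPM to 26.7 and 24.9 (1.33 ± 0.12, adjusted p = 9.79e-04), Trim25, a ubiquitin ligase that acts on RIG-I, rose by 0.84 ± 0.14, Eif2ak2, the RNA-activated kinase PKR, by 0.69 ± 0.09 and Hsp90b1 by 0.49 ± 0.10. Tnf, an inflammatory cytokine, fell from 14.4 and 14.2 to 7.44 and 7.30 CPM (-0.91 ± 0.13). Of the target cytokines on the list, 2 were tested in B cells, with a median log2 fold change of 1.29. The cytokine tested beside Tnf thus had a fold change above 0, and it was not called. Hsp90b1 also rose in both T cell gates. In CD4 T cells it was the only pathway gene called of 39 tested (0.41 ± 0.09), and in CD8 T cells it was called together with Irf7 of 40 tested (0.48 ± 0.08 and 0.62 ± 0.11). In pDCs Irf7 alone passed of 25 tested, from 48.4 and 101 CPM in Control to 187 and 250 in EV (1.40 ± 0.31, adjusted p = 0.0316), a call that DESeq2 did not make. In macrophages none of 20 tested passed by edgeR, with 1 at an unadjusted p under 0.05, and none by DESeq2. The pathway medians were 0.05 in B, 0.25 in CD4 T, 0.08 in CD8 T cells, 0.07 in macrophages and 0.03 in pDCs, beside 0.00 or -0.01 over all genes tested in each gate.

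Genes of the interferon response moved in the same comparison. Of 8 such genes, all 8 rose in B cells (Isg15 by 1.59 ± 0.18, Ifit1 by 1.83 ± 0.23, Rsad2 by 2.05 ± 0.27), 4 in each T cell gate, and 3 of the 4 tested in pDCs (Isg15 by 3.28 ± 0.48 and Usp18 by 2.44 ± 0.47, besides Irf7). Among all genes tested, 2.97% were called in B, 1.59% in CD4 T and 2.11% in CD8 T cells and 0.481% in pDCs. The interferon list and the pathway list, which share Irf7, were chosen with earlier results of these data known. Their counts are thus not separate support. To see how the receptors stand in cells that carry this response, cells with at least 2 UMIs over Ifit1, Ifit3, Ifit3b and Rsad2 were compared with the other cells of their gate in each library. Such interferon-high cells were 0.497% and 0.959% of B cells in Control and 2.84% and 3.16% in EV, and 2.54% and 4.36% against 6.59% and 7.09% of CD4 and CD8 T cells as a single class. Their median depth was 5195.5 to 6767 UMIs among B cells, against 4140 to 5792.5 in the other B cells. None of the receptor genes was used to choose them. The genes used are themselves among the 8, so the larger shares of such cells in EV are not separate from those rises.

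In interferon-high B cells 5 of the 10 receptor genes were higher, and no receptor gene was lower, where 5.12% of 11167 genes were called. Tlr7 was at 79.4, 58.8, 96.6 and 129 CPM in interferon-high and 18.4, 20.1, 27.7 and 27.2 in other B cells of Control 1, Control 2, EV 1 and EV 2, a log2 difference of 2.04 ± 0.14 (adjusted p = 1.94e-14). Ifih1 was at 56.7, 52.3, 40.3 and 31.3 against 2.64, 2.04, 3.25 and 3.39 CPM (3.66 ± 0.26, adjusted p = 3.89e-14). The interferon-high B cells of Control 1 and Control 2 numbered only 15 and 24, against 138 and 136 in EV 1 and EV 2. Their levels rest on 7 and 9 UMIs for Tlr7, 5 and 8 for Ifih1 and 3 and 4 for Dhx58 in the Control libraries. The level of Ifih1 in interferon-high B cells was above that of the whole T cell gates, although B cells as a whole were lowest. T cells chosen in the same way held 34.6, 56.8, 51.2 and 107 CPM, more than interferon-high B cells in every library except Control 1. Ddx58 was higher by 1.91 ± 0.10, Dhx58 by 2.64 ± 0.20 and Tlr3 by 2.98 ± 0.47 (adjusted p = 9.69e-06), the last from 22 UMIs, with 0 in Control 1. Tlr1, Tlr2, Tlr4, Tlr9 and Myd88 did not pass, with Tlr9 at -0.82 ± 1.03, Tlr1 at -0.31 ± 0.20 and Myd88 at 0.72 ± 0.28 (adjusted p = 0.186).

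In interferon-high T cells 4 of 7 receptor genes tested were higher, and again none was lower, where 2.26% of 11747 genes were called. Ifih1 was at 34.6, 56.8, 51.2 and 107 CPM against 10.5, 11.4, 14.2 and 15.4 (2.35 ± 0.16, adjusted p = 4.65e-07), Dhx58 was higher by 2.87 ± 0.22, Tlr7 by 2.02 ± 0.27 and Ddx58 by 1.31 ± 0.13. In each of the 4 libraries and in both cell classes, all 4 genes were higher in the interferon-high cells. The calls were made on these same libraries, so the shared direction is not separate support. Of the 3 genes whose windows hold the motif printed above, Ifih1 and Ddx58 were higher and Myd88 did not pass in either class (0.27 ± 0.16 in T cells). Of the other genes higher, Tlr3 (in B cells) has a window without a match, and Tlr7 and Dhx58 had no window to search.

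Leaving the interferon-high cells out, a comparison added after seeing the data, lowered the EV difference of Ifih1 in CD4 T cells from 0.63 to 0.41 and ended its call (14.2 and 13.9 CPM in Control, 18.5 and 18.3 in EV, adjusted p = 0.178). In CD8 T cells the Ifih1 value went from 0.71 to 0.47 (adjusted p = 0.149). In B cells the values went from 0.35 to 0.26 for Ddx58 and from 0.49 to 0.29 for Dhx58. Tlr7 also fell, from 0.67 to 0.56, and kept its call. Ifih1 in the remaining B cells stood at 2.64 and 2.04 CPM in Control and 3.25 and 3.39 in EV. Whether the interferon-high cells account for any of these differences was not tested.

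**Figure D4:**
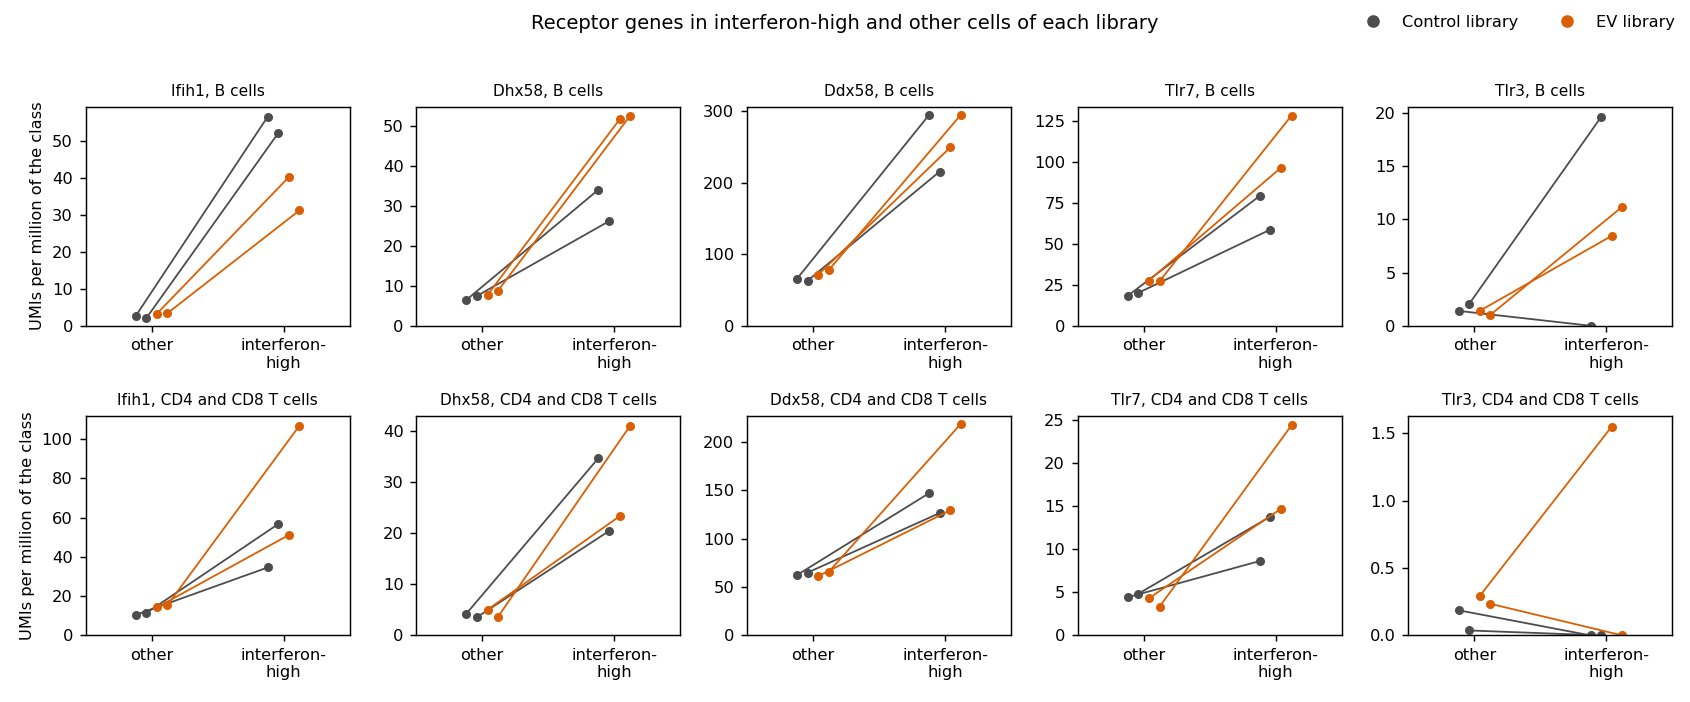
Levels of 5 receptor genes in interferon-high and other cells (x axis) of B cells (top) and of CD4 and CD8 T cells together (bottom), in CPM of the class (y axis, from 0, a scale of its own in each panel); lines join the 2 classes of a library, grey for Control and orange for EV. All lines of Ifih1, Dhx58, Ddx58 and Tlr7 rise, whereas Tlr3 rests on few UMIs and is at 0 in the interferon-high B cells of Control 1. The interferon-high B cells of Control number 15 and 24, so their points for Tlr7, Ifih1 and Dhx58 also rest on few UMIs.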

How the data were processed

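Single cells of draining lymph nodes were measured by a droplet method that tags the poly(A) end of mRNA with a UMI, in 2 Control and 2 EV libraries. The authors deposited whole-number UMI counts per gene and barcode, not normalized, made with Cell Ranger 7.1.0 on mm10; annotation release and intron handling are not given in the sources used here. Cells with 200 to 5000 genes, at most 20000 UMIs and under 10% mitochondrial UMIs were kept, and no doublets were removed. Gates were set by UMIs, so a cell could lie in more than 1 gate, and exclusive gates were an alternative.

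For each gate, the raw counts of a library were added up and tested with edgeR 4.0.16 (R 4.3.3; filterByExpr, TMM, robust quasi-likelihood fit), with Benjamini-Hochberg adjustment over all genes tested and a threshold of 0.05. Comparisons of gates and of interferon-high cells had library as a block. The script was tested on simulated data. Alternatives were DESeq2 1.42.0, RLE scaling, plain library sizes, no filter, an older fit, exclusive gates, thinning to 1000 UMIs, a ribosomal limit of 60%, library sizes without stress and ribosomal genes, a replicate block and each library left out, where the lone library of a group is assumed to vary like the other group. Named genes were the 10 members, pathway genes called in a gate or among the 5 highest in pDCs or macrophages, and the 3 genes closest to each member (genes outside this rule were chosen with their values known). Members and lists were chosen with earlier results of these data known. Samples were grouped by the labels. Replicates differed beyond sampling noise in their B cell sums. Chi-square over degrees of freedom was 5.47 for the Control pair and 32.2 for the EV pair, beside 15.4 to 46.5 for pairs across the groups. Intervals and limits for a count of 0 cover counting error only. A planned B cell marker is not reported here.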

Additional observations from a re-analysis of the deposited data

How the results depend on the processing

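The receptor levels in B and T cells rest on 14686, 5197 and 5901 cells, whereas the macrophage and pDC values rest on 280 and 124 cells. Plain library sizes in place of TMM moved the log2 differences between gates by up to 0.27 (a median over the receptor genes) and turned no called direction. Genes called between EV and Control numbered 1225 in B, 798 in CD4 T, 1006 in CD8 T cells, 45 in macrophages and 58 in pDCs with a replicate block, in place of 394, 190, 259, 4 and 25, and receptor genes called were 5, 1 and 1 in the first 3 gates (in B cells Tlr9, Ddx58, Ifih1 and Dhx58 in addition, in CD8 T cells Ifih1). Same-numbered libraries did not deviate together throughout (r = 0.066 in B, 0.070 in CD4 T, 0.131 in CD8 T cells, 0.110 in macrophages and -0.062 in pDCs), so the numbers are not taken as a pairing. Other settings gave 170 (CD8 T), 1 (macrophages) and 7 (pDCs) called genes with DESeq2, 104 (CD4 T), 88 (CD8 T), 0 (macrophages) and 10 (pDCs) with thinned cells, 207 in B cells outside the Ighd and Fcer2a subset, and 0 in macrophages both without the filter on low counts and with exclusive gates. In CD4 T cells 0 receptor genes were called with DESeq2, with thinned cells or without interferon-high cells. Leaving out a library moved the calls to between 154 and 2763 in B (the highest without EV 1, the lowest without Control 1), 141 and 2060 in CD4 T, 174 and 2103 in CD8 T cells, 23 and 68 in macrophages and 15 and 157 in pDCs, and the receptor genes called to between 0 and 4, 0 and 2, 0 and 2, 0 and 0, and 0 and 0. The cause was not tested.

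Between gates, thinned cells left 1 receptor gene called for B cells against macrophages, 3 against pDCs, 3 for CD4 T cells against macrophages and 3 against pDCs, 2 for CD8 T cells against each, and 0 for CD4 against CD8 T cells and for macrophages against pDCs; exclusive gates left 3 for CD4 T cells against macrophages. Over the fits without a library the calls ranged from 8 to 9 (B and CD4 T), 8 to 8 (B and CD8 T), 2 to 5 (B and macrophages), 5 to 7 (B and pDCs), 2 to 3 (CD4 and CD8 T), 3 to 6 and 4 to 7 (CD4 T against macrophages and pDCs), 3 to 5 and 4 to 8 (CD8 T against the same) and 4 to 5 (macrophages and pDCs). In interferon-high B cells 3 of 6 receptor genes were called with thinned cells, and 5 to 6 without a library.

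Between gates, signs were compared only for differences called in the main fit. Of the differences in effect between gates, only Tlr7 in B minus CD4 T cells was compared. Among the values compared, signs turned only for values past no threshold in the alternative. EV fold changes that turned were Tlr3 (-0.53 to 0.17 over the fits without a library), Myd88 (-0.036 to 0.32) and Ifih1 (-0.00042 thinned) in B cells, Tlr1 (-0.43 thinned, -0.012 to 0.073 without a library) and Myd88 (-0.21 thinned) in CD4 T cells, Tlr7 in CD8 T cells (-0.019 to 0.76 without a library, -0.042 without interferon-high cells) and Tlr7 in pDCs (-0.034 with exclusive gates, -0.27 to 0.35 without a library, with -0.10 without Control 2). Between gates, with thinned cells, they were Myd88 (B minus macrophages 0.21), Ifih1 (B minus pDCs 4.94), Dhx58 (CD4 T minus pDCs 5.76, CD8 T minus pDCs 5.34) and Tlr4 (CD8 T minus pDCs 1.47). The last 3 genes had 0 UMIs in all thinned pDCs, so these fitted values are no estimate of a size or direction. In interferon-high B cells they were Tlr4 (-0.0089 to 1.06) and Tlr9 (-1.35 to 0.27) without a library, and in T cells Tlr1 (-0.15 with at least 3 UMIs, -0.10 without EV 2) and Tlr2 (-1.97 to 0.27 without a library). The EV minus Control share of B cells with a Tlr9 UMI became 0.016 percentage points in thinned cells.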
